A study of Mus musculus with 2 samples.

Results

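The genes described are 10 apolipoproteins in cells sorted as macrophages from the aorta of ApoE knockout mice. They are Apoe itself, which is the deleted gene, its neighbours Apoc1 and Apoc4, and 7 apolipoproteins made mainly by the liver or intestine. The 7 are Apoa1, Apoa2, Apoa4, Apob, Apoc3, Apoh and Apom. All 10 were taken by gene name, and each name matched 1 of the 54532 genes in the deposited table. RNA was sequenced in 1 library for the PDR (Phlegm-Dampness Retention) group and 1 for the SKYD (Spleen and Kidney Yang Deficiency) group, and each library held the pooled cells of 5 mice, sorted on the surface proteins F4/80 and CD11b. The question was how macrophages differ between these syndromes of dyslipidemia, a disorder of the blood lipids. Both libraries also held reads of markers of hepatocytes, B cells, T cells and erythroid cells, as given below. The values are therefore not assigned to macrophages alone.

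Both groups were male mice labelled ApoE-/- on the C57BL/6J background with an age of 6 weeks, and the labels do not name the Apoe allele. The article gives 6 weeks where it describes the animals, and it states no age at sampling. By the article, feeding ran to week 4 in PDR and to week 6 in SKYD. The PDR mice had 4 weeks of high-fat feeding. The SKYD mice first received the antithyroid drug propylthiouracil for 4 weeks, at a daily 10 mg/kg, and had 2 weeks of high-fat feeding after it. Syndrome, drug, time on the diet and age cannot be told apart here. Below, PDR and SKYD stand for the respective library. No library of wild-type mice was analysed here. With 1 library per group there is no replicate, no difference below has a test, and the spread between mice is unknown.

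Apolipoproteins are the protein part of lipoproteins, the particles that carry cholesterol and triglycerides in blood. Apob forms the scaffold of chylomicrons and of very low and low density lipoproteins, whereas Apoa1 and Apoa2 are the main proteins of high density lipoprotein. Apoe lets remnant particles be taken up by receptors of the LDL receptor family, and it is made by hepatocytes and also by macrophages, where liver X receptors induce it when cholesterol is loaded. Mice without working Apoe accumulate remnants and develop atherosclerosis, which is why they are used as a model of dyslipidemia. Apoe, Apoc1, Apoc4 and Apoc2 lie side by side in a cluster on chromosome 7, and Apoa1, Apoc3, Apoa4 and Apoa5 in another on chromosome 9.

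Levels are given in FPKM, reads scaled to gene length and library size, as the authors deposited them. Reads on each gene were recovered from FPKM and gene length, and they came out whole, within 0.001 of a read, for 100% of genes. Their sum was 23086889 reads for PDR and 25427863 for SKYD. The library sizes behind FPKM differed from these sums, at 2.349e+07 for PDR and 2.499e+07 for SKYD. Folds rest on these sizes, and shares of reads on the sums. Intervals are exact 95% limits from the recovered reads, and they cover counting error only. A difference is the PDR value of log2(FPKM + 1) less the SKYD value, and a gene counted as tested when its mean FPKM over both libraries was at least 1, which 10399 genes reached. A difference of more than 2-fold on this scale was counted. The added 1 shrinks the difference of low genes, so the plain fold of FPKM is also given.

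Promoters of 8 of the 10 genes were found in the RefSeq table for GRCm38.p6, and those of Apoc1 and Apoc3 were not matched. The stretches before the start are shown for Apoe, for the most abundant liver-type genes Apoa1 and Apoa2, and for Apob, since these genes were all at higher FPKM in the same library. Each is printed 5′ to 3′ on the strand of its gene, up to the base before the start of the gene in the deposited table. Capitals mark TATAAA, the core of the TATA box.
Apoe, chr7:19699189-19699438, minus strand: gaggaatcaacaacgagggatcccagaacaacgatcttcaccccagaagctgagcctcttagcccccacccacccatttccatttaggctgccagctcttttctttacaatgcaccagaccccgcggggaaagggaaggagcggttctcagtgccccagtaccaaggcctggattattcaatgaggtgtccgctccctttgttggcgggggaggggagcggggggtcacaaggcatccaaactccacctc
Apoa1, chr9:46228380-46228579, plus strand: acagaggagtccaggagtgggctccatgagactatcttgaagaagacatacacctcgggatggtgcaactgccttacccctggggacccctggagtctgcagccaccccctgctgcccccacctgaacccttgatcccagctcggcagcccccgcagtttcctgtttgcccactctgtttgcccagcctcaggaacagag
Apoa2, chr1:171224804-171225053, plus strand: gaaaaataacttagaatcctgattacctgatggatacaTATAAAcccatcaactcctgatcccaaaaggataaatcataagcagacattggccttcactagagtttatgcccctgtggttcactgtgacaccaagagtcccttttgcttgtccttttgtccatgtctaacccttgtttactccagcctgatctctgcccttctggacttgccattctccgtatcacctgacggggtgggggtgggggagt
Apob, chr12:7977427-7977647, plus strand: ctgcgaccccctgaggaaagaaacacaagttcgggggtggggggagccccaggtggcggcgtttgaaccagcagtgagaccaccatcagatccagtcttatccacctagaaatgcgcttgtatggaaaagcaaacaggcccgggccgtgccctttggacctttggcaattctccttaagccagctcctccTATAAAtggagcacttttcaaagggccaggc
The search covered both strands of 300 bases, from 250 before to 50 after each start. TATAAA was found in 13.6% of all 32851 promoters. In Apob it begins at -60 from the RefSeq start, which is -31 from the start that the deposited table gives, and in Apoa2 it begins at -212. Apoa2 has another RefSeq start farther upstream, where TATAAA was not found. At the upstream start of Apoe printed above it was not found, but an internal start of Apoe has it at -96 and, on the other strand, at -100, where the runs overlap. Longer motifs of liver factors were also searched. CAAAGTCCA and CAAAGGTCA, which are HNF4-type motifs, occur in 0.475% and 0.478% of all promoters. The C/EBP-type motif TTGCGCAA occurs in 0.183%. None of these 3 longer motifs was found in the promoters of the 8 genes, which says only that these exact letters are not in the windows.

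The deleted gene had many reads in both libraries. Apoe (ENSMUSG00000002985, chromosome 7 from 19696109 to 19699188 of GRCm38, minus strand) had 17336 reads and 345 FPKM in PDR, and 3618 reads and 67.7 FPKM in SKYD. Among the 22046 protein-coding genes of the table its level ranked 180 in PDR and 953 in SKYD. The PDR level was 5.10 times the SKYD level (95% CI 4.92 to 5.29), a log2 difference of 2.33 (95% CI 2.28 to 2.38), and this was the largest log2 difference of the 10 genes, although Apoa4 had a larger plain fold from few reads. A gene-level value cannot locate reads to exons, and a knockout allele can leave transcript from parts of a gene, so these values do not check the ApoE-/- label. No exon base of Apoe is shared with another annotated gene.

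The neighbours of Apoe on chromosome 7 were closer in level between the libraries. Apoc1 (ENSMUSG00000040564, 19689481 to 19692660), which slows the clearance of remnants and the action of lipases, had 226 FPKM in PDR and 141 in SKYD, from 3952 and 2613 reads. This is a fold of 1.61 (95% CI 1.53 to 1.69) and a log2 difference of 0.68. Apoc4 (ENSMUSG00000074336, 19678083 to 19681479), a minor protein of very low density lipoprotein, had 16.1 and 10.9 FPKM from 957 and 688 reads, a fold of 1.48 (95% CI 1.34 to 1.63) and a log2 difference of 0.53. The intervals of these folds overlap each other, and both lie below the interval of Apoe. Within a library, Apoe was 1.53 times the level of Apoc1 in PDR and 0.482 times its level in SKYD, so that the order of the adjacent genes by FPKM was the opposite in SKYD.

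Apoa2 and Apoa1, the main proteins of high density lipoprotein, were the most abundant of the liver-type genes. Apoa2 (ENSMUSG00000005681, chromosome 1 from 171225054 to 171226379) had 793 FPKM in PDR and 294 in SKYD, from 10000 and 3952 reads, a fold of 2.69 (95% CI 2.59 to 2.79). Apoa1 (ENSMUSG00000032083, chromosome 9 from 46228580 to 46230466), which activates the enzyme that esterifies plasma cholesterol, had 402 and 111 FPKM from 11678 and 3437 reads, a fold of 3.62 (95% CI 3.48 to 3.76). Apom (ENSMUSG00000024391, chromosome 17 from 35128997 to 35132050), a carrier of sphingosine 1-phosphate, was lower in level, with 25.7 and 7.07 FPKM from 611 and 179 reads, a fold of 3.63 (95% CI 3.07 to 4.31). Their log2 differences were 1.43, 1.84 and 1.73. The PDR library was the higher for each, and the interval of Apoa2 lies below those of Apoa1 and Apom.

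Apoc3 and Apoh were also higher in PDR. Apoc3 (ENSMUSG00000032081, chromosome 9 from 46232933 to 46235636), an inhibitor of lipoprotein lipase, had 92.5 FPKM in PDR and 30.5 in SKYD, from 2204 and 774 reads. Its fold was 3.03 (95% CI 2.79 to 3.29) and its log2 difference 1.57. Apoh (ENSMUSG00000000049, chromosome 11 from 108343354 to 108414396), a plasma glycoprotein that binds phospholipids, had 39.98 and 10.6 FPKM from 1497 and 421 reads, with a fold of 3.78 (95% CI 3.39 to 4.23) and a log2 difference of 1.83. In the annotation, 30 of the 1594 exon bases of Apoh are shared with Prkca on the other strand, a gene named after its values were seen.

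Apob and Apoa4, which the intestine uses for chylomicrons, had a mean FPKM under 1 and were not tested. Apob (ENSMUSG00000020609, chromosome 12 from 7977648 to 8016835) had 1.11 FPKM in PDR and 0.359 in SKYD, from 364 and 125 reads over a gene length of 13934 bases. The fold of FPKM was 3.10 (95% CI 2.52 to 3.83), and the log2 difference of 0.64 is shrunk by the added 1. Apoa4 (ENSMUSG00000032080, chromosome 9 from 46240696 to 46243459) had 0.844 and 0.0882 FPKM from 36 and 4 reads, a fold of 9.58 with a wide interval (95% CI 3.43 to 37.0) and a log2 difference of 0.76. In the annotation, 1266 of the 1815 exon bases of Apoa4 lie in exons of Gm10680 or Gm47528 on the other strand, which were named after their values were seen and were listed at 0 FPKM in both libraries. Whether reads in overlaps were counted by strand is not given in the sources used here, so the values of Apoa4 are uncertain.

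**Figure D1:**
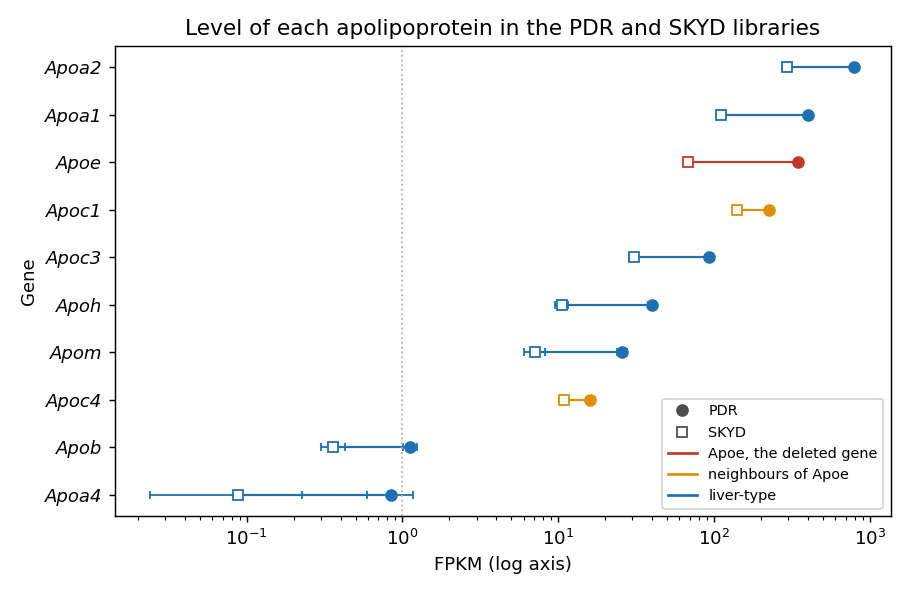
Level of each of the 10 apolipoproteins in FPKM on a log axis, with filled circles for the PDR library, open squares for the SKYD library and bars for exact 95% Poisson intervals of the reads (1 pooled library per group; the dotted line marks 1 FPKM). Each gene is farther right in PDR, and the gap is wider for Apoe, from 67.7 to 345 FPKM, than for Apoc1, from 141 to 226.

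Among the 8 tested genes, each of which was above 1 FPKM in both libraries, 6 were more than 2-fold higher in PDR, namely Apoe, Apoa1, Apoa2, Apoc3, Apoh and Apom. The same call was made for 767 of all 10399 tested genes, or 7.38%. No apolipoprotein of the 8 was more than 2-fold higher in SKYD, against 719 of all tested genes, or 6.91%. Both shares also stand beside the counts of calls in the lists below. Apoc1 and Apoc4 were within 2-fold, and Apob and Apoa4 were outside the test. The median log2 difference of all 7 liver-type genes was 1.57, or 1.73 over the 5 tested, and that of all tested genes was -0.0035. The liver-type median of all 7 minus the Apoe difference was -0.76, or -0.50 with 0.1 or 0.01 added instead of 1. At a threshold of more than 4-fold on the same scale, Apoe was the 1 gene left of the 8 tested. Of all tested genes, 194 were past this threshold toward PDR, or 1.87%. In pooled cells, more cells of a type and more RNA per cell cannot be told apart.

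**Figure D2:**
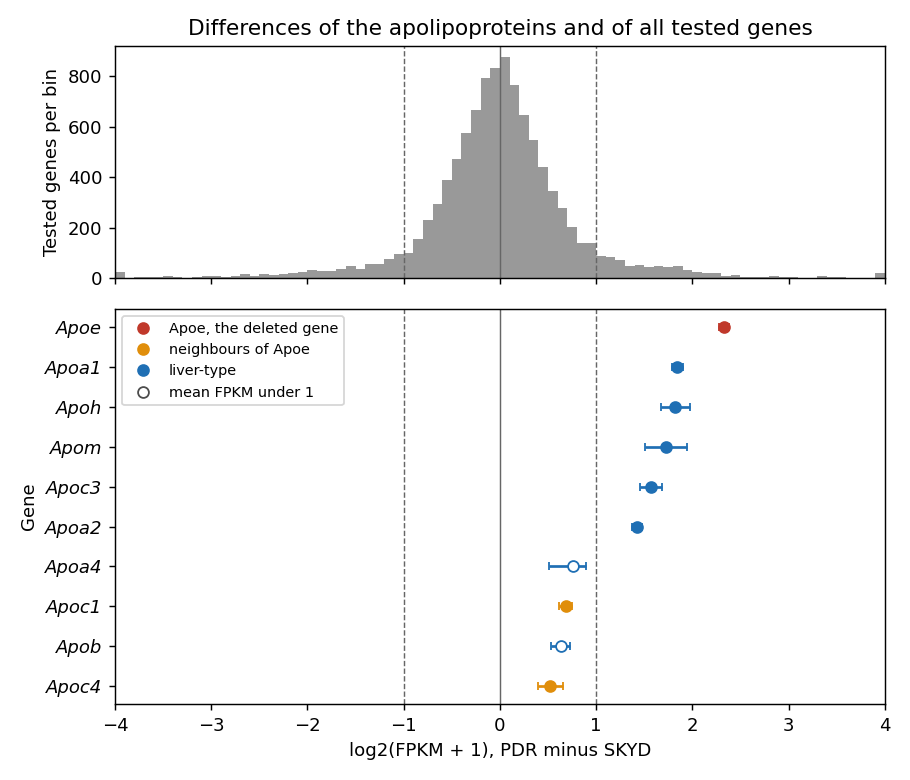
Upper panel, number of tested genes in bins of the difference in log2(FPKM + 1), PDR minus SKYD, with values past 4 in the end bins; lower panel, the difference of each of the 10 apolipoproteins with its 95% interval of counting error. Dashed lines mark 2-fold and open circles a mean FPKM under 1; Apoe stands at 2.33, the tested liver-type genes between 1.43 and 1.84, and Apoc1 and Apoc4 at 0.68 and 0.53.

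The order of levels was similar but not equal in the libraries. In PDR it ran from Apoa2 over Apoa1, Apoe, Apoc1, Apoc3, Apoh, Apom, Apoc4 and Apob to Apoa4, and the intervals of Apob and Apoa4 overlapped. In SKYD, Apoc1 stood above Apoa1 and Apoe, and Apoc4 above Apoh and Apom, and the intervals of Apoc4 and Apoh overlapped. All other neighbours in these orders were apart by more than counting error. Of the summed FPKM of the 10 genes, Apoe made up 17.8% in PDR and 10.1% in SKYD, while the share of Apoc1 was 11.6% and 20.9%. The share of Apoa2 was 40.8% and 43.7%. Together the 10 genes took 0.211% of reads in PDR (95% CI 0.209 to 0.213) and 0.0622% in SKYD (95% CI 0.0612 to 0.0632). Levels between genes depend on the length used. The length of 2537 bases given to Apoc4 includes a retained intron and is 4.72 times its longest coding transcript, whereas this ratio is 1.52 for Apoe and 1.04 for Apoa2.

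Ratios of FPKM within a library were near equal in PDR and SKYD for some liver-type genes and not for Apoe or Apoc1. The level of Apoa1 was 1.56 times that of albumin (Alb) in PDR and 1.53 times in SKYD. For Apom the ratio to Apoa1 was 0.0638 and 0.0635, and for Apoh 0.0994 and 0.0950. The ratio of Apoe to Alb was 1.34 in PDR and 0.930 in SKYD, and that of Apoc1 to Alb was 0.877 and 1.93. Other liver-type genes differed as well, with Apoa2 at 1.97 times Apoa1 in PDR and 2.65 times in SKYD, Apoc3 at 0.230 and 0.275 times, and Apob, from few reads, at 0.00276 and 0.00323 times.

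Markers of hepatocytes moved with the liver-type genes. Of 20 markers, 20 were tested, 19 were past 2-fold toward PDR and none in SKYD, and Cps1, an enzyme of the urea cycle named after its values were seen, had a log2 difference of 0.98. Their median log2 difference was 1.81. Their summed level was 1685 FPKM in PDR and 492 in SKYD, a ratio of 3.42, and they took 0.2974% of reads in PDR (95% CI 0.2952 to 0.29965) and 0.0766% in SKYD (95% CI 0.0755 to 0.0776). The most abundant was Fabp1, a fatty acid binding protein of liver and intestine, with 410 and 167 FPKM. Alb, the main plasma protein, had 258 and 72.8 FPKM. None of the 20 markers was at 0. The fold of FPKM ranged over the markers from 2.45 to 6.73, with a median of 3.97. Apoe, at 5.10, was above 17 of the 20 markers and below 3, which were F2, Itih4 and Tat, named after their values were seen. Apoc1 and Apoc4 were below all 20. Their part in the differences of the apolipoproteins was not tested.

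Transcription factors of the liver were low in level. Of 11 factors, 2 were tested, and the median log2 difference of all 11 was 0.28. Nr0b2, a repressor of bile acid synthesis, had 4.93 FPKM in PDR and 1.03 in SKYD, a log2 difference of 1.55. Of the 2 tested factors, it was the 1 more than 2-fold higher in PDR on the scale of log2(FPKM + 1). Creb3l3, which drives genes of triglyceride metabolism, had 2.13 and 0.570 FPKM and a log2 difference of 0.996, just short of 2-fold on this scale. Its plain fold was 3.74 (95% CI 2.65 to 5.37), and it reached a mean FPKM of 1 through PDR alone. Ppara, a factor of fatty acid oxidation, had 59 and 20 reads. Hnf4a was looked at because of the motifs and was named after its values were seen. It had 64 reads in PDR and 6 in SKYD, a fold of 11.4 (95% CI 4.94 to 32.1). With a mean of 0.307 FPKM it was not tested, and its log2 difference was 0.58. This fold was the largest of the list among factors with reads in both libraries, and the smallest was 2.60.

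Enterocytes are the other main source of Apob, Apoa1 and Apoa4. Of 12 enterocyte markers, 2 were tested, and their summed level was 6.91 FPKM in PDR and 2.76 in SKYD. Sis, Lct, Alpi, Cdx2, Slc5a1, Rbp2 and Krt20 had 0 reads in both libraries, and a count of 0 allows up to 3 reads, or 1.30e-05% of reads in PDR and 1.18e-05% in SKYD. The most abundant by mean FPKM was Cdh17, a cadherin of the intestine that B cells also carry, with 4.41 and 0.277 FPKM and a log2 difference of 2.08, and 3 other markers were above it in SKYD. It reached a mean FPKM of 1 through PDR alone, so that it had to differ. Fabp2, the other tested marker, was also higher in PDR and was named after its values were seen. It had 2.34 FPKM in PDR and 1.12 in SKYD, from 53 and 27 reads. Its plain fold was 2.09 (interval 1.29 to 3.45), and its log2 difference of 0.66 was within 2-fold. Others lay the other way and were named after their values were seen, with 8 reads in PDR and 52 in SKYD for Reg3g, 0 and 16 for Cdx1, and 0 and 1 for Vil1. Over all 12 markers 2 differences were above 0 and 3 below, and the median was 0.

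Macrophage markers had the larger summed level, mostly from 1 gene, and 14 of 16 had a log2 difference below 0. All 16 were tested, 5 were more than 2-fold higher in SKYD and none in PDR, where the shares of all tested genes were 6.91% and 7.38%. The median log2 difference was -0.61. Of the 5, Cd163 reached a mean FPKM of 1 through SKYD alone, with 0.741 and 3.29 FPKM. Csf1r and Fcgr1 were the 2 above 0, at 0.35 and 0.54. Cd163, Csf1r and Fcgr1 were chosen once their values had been seen. The summed level of all 16 was 27828 FPKM in PDR and 51469 in SKYD, or 3.81% of reads (95% CI 3.81 to 3.82) and 6.76% (95% CI 6.75 to 6.77). The most abundant was Lyz2, the lysozyme of myeloid cells, with 22217 and 41336 FPKM, and its close copy Lyz1 may share reads with it. None of the 16 was at 0. The level of Apoe was 0.0155 times that of Lyz2 in PDR and 0.00164 times in SKYD. Of 6 markers of Kupffer cells, the macrophages of the liver, 5 were tested, 1 was more than 2-fold higher in SKYD and none in PDR. The same shares of all tested genes apply, so a list this short would have few calls. The median was -0.52, or -0.27 over all 6, and the summed levels were 192 and 291 FPKM. The most abundant of these was Cd5l, an inhibitor of apoptosis that macrophages secrete, with 110 and 159 FPKM, and none was at 0.

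B cell markers were higher in PDR, as the apolipoproteins were. Of 6 markers, 4 were tested and 4 were more than 2-fold higher in PDR, with a median log2 difference of 2.49, or 1.97 over all 6. Their summed level was 1664 FPKM in PDR and 381 in SKYD, a ratio of 4.37. The most abundant by mean FPKM was Cd79b, a part of the B cell receptor, with 802 and 168 FPKM, though 1 other marker was above it in SKYD, and none was at 0. Their part in the differences of the apolipoproteins was not tested either.

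Other apolipoproteins were mixed. Of 19 genes, 10 were tested, 4 were past 2-fold toward PDR and none in SKYD, where the shares of all tested genes were 7.38% and 6.91%. The median log2 difference was 0.75, or 0.27 over all 19. The 4 were Apoa5, an activator of lipoprotein lipase, with 7.04 and 2.41 FPKM, Apof, an inhibitor of lipid transfer, with 17.1 and 6.04, Clu (clusterin, or apolipoprotein J) with 20.7 and 7.89, and Apol11b with 37.6 and 5.05. The difference of Apol11b, 2.67, was larger than that of Apoe, but it belongs to a family of similar genes in which reads may be shared. The mitochondrial proteins Apoo and Apool, which are apolipoproteins in name, had log2 differences of -0.17 and 0.18, with 27.7 and 31.4 FPKM for Apoo and 21.5 and 18.8 for Apool.

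Genes that assemble lipoproteins or remodel them in plasma had more calls toward PDR than toward SKYD. Of 17 genes, 12 were tested, 4 were past 2-fold toward PDR and 1 in SKYD, where the shares of all tested genes were 7.38% and 6.91%. The median was 0.71, or 0.21 over all 17, with 9 differences above 0 and 8 below. The summed level was higher in SKYD, at 516 FPKM in PDR and 601 in SKYD. The 4 were Lcat, the plasma enzyme that esterifies cholesterol on high density lipoprotein, with 10.3 FPKM in PDR and 2.50 in SKYD, Pon1, an esterase carried on the same particle, with 12.1 and 3.05, Lipc, the hepatic lipase, with 4.73 and 1.38, and Tm6sf2, which helps to load very low density lipoprotein, with 1.99 and 0.295. Tm6sf2 reached a mean FPKM of 1 through PDR alone, so that it had to differ. Pltp, the phospholipid transfer protein, which macrophages also make, was 3.01 times higher in SKYD (95% CI 2.91 to 3.11), with 70.9 FPKM in PDR and 213 in SKYD. The general secretory genes Sar1b and P4hb, the most abundant of the list by mean FPKM though below Pltp in SKYD, had log2 differences of 0.27 and -0.08.

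Receptors and efflux genes had no call in either direction, where the shares of all tested genes were 7.38% toward PDR and 6.91% toward SKYD, so lists this short would have few. None of the 10 tested lipoprotein receptors of 13 was past 2-fold, and their median was -0.18, or -0.15 over all 13. Cd36, a scavenger receptor, had 80.3 FPKM in PDR and 86.7 in SKYD, Msr1, the class A scavenger receptor, 34.4 and 41.1, and Scarb1, the receptor for high density lipoprotein, 7.44 and 6.45. All 14 genes of cholesterol efflux and of the liver X receptor pathway, which governs Apoe in macrophages, were tested, none was past 2-fold and their median was -0.14. Plin2, the coat of lipid droplets, had 107 FPKM in PDR and 154 in SKYD. Npc2, which moves cholesterol out of lysosomes, had 68.0 and 92.1, and Nr1h2, a liver X receptor, had 16.2 and 15.7. The log2 differences of these 14 genes ran from -0.70 to 0.18, 10 of them below 0. The lowest was that of Abcg1, a transporter of cholesterol out of macrophages named after its values were seen, which was 1.703 times higher in SKYD (95% CI 1.55 to 1.87). By plain fold, Npc1 and Rxra, also named after their values were seen, lay farther toward SKYD, at 1.997 and 1.915 times the PDR level. Any part of this pathway or of the receptors in the difference of Apoe was not tested.

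Few genes around Apoe on chromosome 7 were past 2-fold. Of 12 protein-coding genes within 100 kb of Apoe, itself included, 9 were tested, 2 were past 2-fold toward PDR and 1 in SKYD. Apart from Apoe this is 1 gene each way, near the shares of all tested genes, 7.38% and 6.91%. Those in PDR were Apoe and Relb, a subunit of NF-kB, with a log2 difference of 1.04. Bcam, a laminin receptor, was higher in SKYD, with 1.90 and 10.1 FPKM and a log2 difference of -1.93. Tomm40, the gene next to Apoe and upstream of it, had a log2 difference of -0.46, Nectin2 0.03, Clptm1 0.17 and Clasrp -0.27, and Cblc had 15 and 5 reads. Apoc2, the cofactor of lipoprotein lipase, had 0 reads in both libraries, and so did Gm44805, a gene that overlaps Apoc2 and Apoc4. In the annotation, 646 of the 813 exon bases of Apoc2 and 119 of the 2537 of Apoc4 are shared with Gm44805 on the same strand, and how such reads were counted is not given in the sources used here, so the value of 0 for Apoc2 is uncertain. Its 3-read limit is 0.157 FPKM in PDR and 0.148 in SKYD.

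Around Apoa1 on chromosome 9, 8 protein-coding genes lay within 100 kb and 6 were tested. Apoa1, Apoc3 and Apoa5 were more than 2-fold higher in PDR, with Apoa5 at a log2 difference of 1.24, and Apoa4 was under the limit of the test. The other neighbours, which are not apolipoproteins, were close to 0, with Sik3 at 0.13, Zpr1 at 0.04 and Bud13 at -0.10, and 4931429L15Rik had 0 reads in both libraries.

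**Figure D3:**
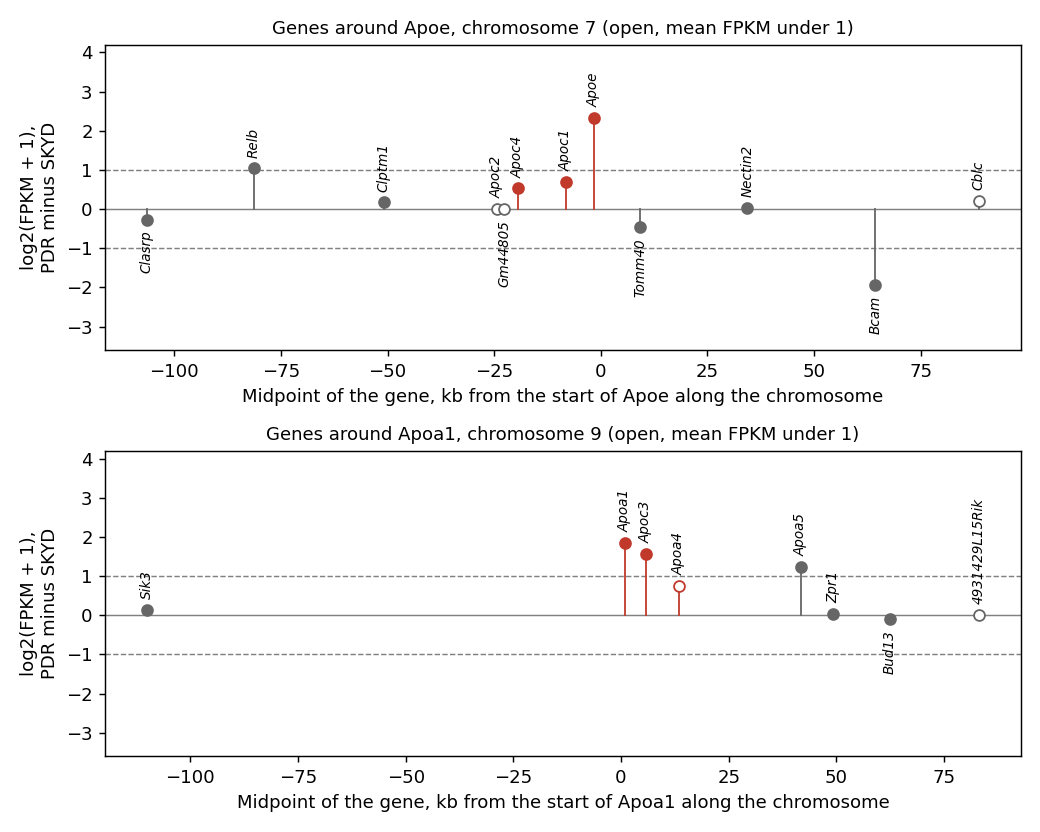
Difference in log2(FPKM + 1), PDR minus SKYD, of protein-coding genes within 100 kb of Apoe (upper panel) and Apoa1 (lower panel), placed by distance in kb from the start of that gene (red, the 10 apolipoproteins described; open, mean FPKM under 1; dashed lines, 2-fold). Apoe at 2.33 stands between Apoc1 at 0.68 and Tomm40 at -0.46, while Apoa1 and Apoc3 lie side by side at 1.84 and 1.57.

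The genes most like Apoe in level were found by the distance over log2(FPKM + 1) in both libraries, among protein-coding genes other than the 10. For Apoe they were Serpina3k, a serine protease inhibitor of liver on the hepatocyte list, at a distance of 0.13, Ly6i, of the Ly6 family of surface proteins, at 0.16, and Alb at 0.43. For Apoc1 they were the proteasome subunit Psmb10 at 0.06, the actin nucleator Actr3 at 0.13 and the sorting nexin Snx2 at 0.16. For Apoa1 they were Fabp1 at 0.58, Ly6i at 0.59 and Mzb1, a protein of plasma and B cells, at 0.61. The libraries are only 2, so many genes can lie near any point by level alone.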

How the data were processed

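Sorted cells of 5 pooled mice per group gave 1 library each. Per the labels and the article's methods, the authors aligned reads with TopHat2 2.0.9 and Bowtie2 2.0.6, counted them with HTSeq 0.6.1 and deposited FPKM per gene. The labels name mm9, but 98.3% of the 54409 genes shared with GENCODE M21 have its GRCm38 start and end, so positions are given as GRCm38. Gene length, deposited beside FPKM, equals the union of exons for 98.0% of shared genes.

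Reads were recovered as whole multiples of the smallest step of FPKM times length. Folds carry exact Clopper-Pearson limits and levels exact Poisson limits. No test was possible. The members and lists were chosen with earlier results of these data known. Named genes were the 10 apolipoproteins, the 3 most abundant by mean FPKM and all past 2-fold in each of 5 pathway lists, the most abundant and those at 0 in each of 12 marker lists, protein-coding genes within 100 kb of Apoe and Apoa1, and the 3 nearest in level to Apoe, Apoc1 and Apoa1. No gene is in more than 1 list. A planned item among the liver factors and motifs is not reported here. Promoters came from RefSeq GRCm38.p6. The settings varied were the pseudocount (0.1, 0.01), the filter (none, a mean of 5), the scale (TPM, the median or a 40% trimmed mean as centre), the biotype (protein-coding) and the fold (4). Steps were tested on simulated data with numpy 2.4.6, scipy 1.17.1, pandas 2.3.3 and matplotlib 3.10.9 under Python 3.11.15.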

Additional observations from a re-analysis of the deposited data

How the results depend on the processing

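The log2 difference of each of the 10 apolipoproteins was above 0 under all 8 alternatives that give one. It stayed between 2.33 and 2.35 for Apoe and between 0.68 and 0.70 for Apoc1, while that of Apob reached 1.60 and that of Apoa4 3.12 with a smaller pseudocount, since these genes have few reads per length. The median difference of the liver-type genes was 1.85 with a pseudocount of 0.1 and 1.85 with 0.01, against 1.57, and the liver-type median minus the Apoe difference was -0.50 and -0.50, against -0.76. The count of apolipoproteins called higher in PDR was 1 of 8 tested at a 4-fold threshold, where the share of all tested genes was 1.87%. Tested genes past the threshold in PDR numbered 464 with a mean FPKM of at least 5 and 194 at 4-fold, where fewer genes are tested or more is asked, against 767, and rose to 1057 and 1096 with the smaller pseudocounts and 1047 in TPM. Those in SKYD numbered 373 with a mean FPKM of at least 5, 473 with protein-coding genes only and 216 at 4-fold, against 719, and rose to 1010, 1048 and 948. The share of all tested genes past 2-fold toward PDR was at most 10.5%. The medians of several lists moved as well. That of lipoprotein assembly was 0.21 with no filter and 0.27 at a mean FPKM of at least 5, against 0.71, that of other apolipoproteins 0.27 and 1.29, against 0.75, and that of fibroblast markers -0.55 with no filter and -2.69 with a pseudocount of 0.01, against -1.63. Liver transcription factors came to 0.28 with no filter and 1.95 and 2.07 with the smaller pseudocounts, against 1.27, and enterocyte markers to 0, 2.29 and 2.50, against 1.37. With no filter, Kupffer cell markers came to -0.27, against -0.52, endothelial markers to 0.08, against 0.45, smooth muscle markers to 0, and erythroid markers from -0.21 to 0.04. Depth limits Apoa4, with 4 reads in SKYD. No paired analysis was possible because each group has 1 library and no result comes from a test.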

Other observations

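Other marker lists differed between the libraries as well. T cell markers lay the other way from the apolipoproteins. All 6 were more than 2-fold higher in SKYD, with a median log2 difference of -2.38, summed levels of 138 FPKM in PDR and 710 in SKYD, and Cd3d, a part of the T cell receptor complex, as the most abundant by mean FPKM, though 1 other marker was above it in PDR. Neutrophil markers summed to 4648 and 3498 FPKM, and of the 6 tested, 1 was more than 2-fold higher in PDR and none in SKYD, with a median of 0.63 and S100a9, a calcium-binding protein of neutrophils, as the most abundant. Erythroid markers summed to 20158 and 27086 FPKM, led by the haemoglobin gene Hba-a1, with none of 5 tested past 2-fold and a median of -0.21, or 0.04 over all 6.

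Markers of cells of the vessel wall were low. The 6 fibroblast markers summed to 10.8 FPKM in PDR and 43.7 in SKYD, with Dcn (decorin) as the most abundant. Of the 2 tested, Dcn was more than 2-fold higher in SKYD with 10.03 and 39.4 FPKM, and Lum (lumican), named after its values were seen, was past 2-fold too but reached a mean FPKM of 1 through SKYD alone. The median over all 6 was -0.55. Smooth muscle markers summed to 3.15 and 2.92 FPKM, with Acta2 (smooth muscle actin) as the most abundant by mean FPKM, though 1 other marker was above it in PDR, and Myh11, Tagln, Cnn1 and Lmod1 at 0 reads in both libraries; none of 2 tested was past 2-fold and the median over all 6 was 0. Endothelial markers summed to 4.46 and 2.91 FPKM, and Pecam1 (CD31), the most abundant and the 1 tested, had a log2 difference of 0.45. None of 6 adipocyte markers was tested. They summed to 1.29 and 3.19 FPKM, with Cfd (adipsin) as the most abundant by mean FPKM from 0 reads in PDR and 36 in SKYD, and Lep (leptin) at 0 reads in both.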
